A study of Mus musculus with 29 samples.

Results

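The 10 genes that hold back or drive the calcification of arteries were followed through the aortic arch of mice of 2 genotypes, 2 ages and 2 diets. These 10 genes are Mgp, Enpp1, Nt5e, Alpl, Tnfrsf11b, Bmp2, Bmp4, Runx2, Sox9 and Comp, taken as a list of known regulators and matched to their Ensembl identifiers, 10 of the 56748 genes in the count table. All 10 passed the filter on low counts and were tested among 12353 genes. The mice were Ercc1Δ/- animals, which carry 1 truncated and 1 null allele of the DNA repair gene Ercc1 and age early in many tissues, and their WT littermates, all F1 hybrids of C57BL6J and FVB. The deficiency is in every cell of these mice and not limited to the vessel wall. The AL groups ate without limit and were sampled at 6 weeks (5 WT and 5 Ercc1Δ/- mice) and at 22 weeks (4 WT and 4 Ercc1Δ/- mice). The DR groups (5 WT and 5 Ercc1Δ/- mice of 22 weeks) received less food from week 7 and 30% less from week 9. Each mouse gave 1 library, and each group held males and females. One more AL-fed WT library of 22 weeks, sample 003, was left out for its low depth and enters only as an alternative.

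Arteries resist mineral deposition by active means. Smooth muscle cells secrete inhibitors that bind mineral or bone morphogenetic proteins (BMPs), and enzymes at the cell surface set the balance between pyrophosphate, which blocks crystal growth, and phosphate, which feeds it. In diseased arteries smooth muscle cells can take on features of bone and cartilage cells, with the transcription factors RUNX2 and SOX9 and the BMP ligands as drivers. Osteoprotegerin, encoded by Tnfrsf11b, is a decoy receptor that captures the osteoclast factor RANK ligand, and mice that lack either it or matrix Gla protein (MGP) calcify their arteries.

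Counts on genes ranged from 921167 to 9616382 per library over the 28 libraries. The depth was not even between groups. AL-fed Ercc1Δ/- libraries of 22 weeks held 1294980 to 3855444 counts and their WT counterparts 3903589 to 9616382, and 6 libraries of 3 groups held fewer than 1500000 (samples 011 and 019 of WT at 6 weeks, 013 and 026 of Ercc1Δ/- on AL and 014 and 016 of Ercc1Δ/- on DR, both at 22 weeks). Ercc1 itself had a median of 54.4 normalized counts (28.2 to 78.7) in the 14 Ercc1Δ/- libraries and 113 (52.2 to 136) in the 14 WT libraries. These ranges overlapped. The smooth muscle marker list (Myh11, Acta2, Tagln and 3 more) summed to 67086 to 170304 normalized counts over the 28 libraries. The skeletal muscle list (Acta1, Myh4, Ckm and Tnnt3) summed to 762 in sample 013, an AL-fed Ercc1Δ/- mouse of 22 weeks. In the other libraries it summed to 4.69 to 39.6. The part of such tissue in the levels of sample 013 was not tested. A normalized count is a count scaled to a library of 3683502, and a level here always means normalized counts. Differences are log2 fold changes with their standard errors (SE) from edgeR's quasi-likelihood test with sex in the model, and a gene was called when its Benjamini-Hochberg adjusted p over all 12353 genes was at most 0.05 and the change at least 1.2-fold.

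The 10 genes differed by orders of magnitude in level. Per kilobase of annotated exon, AL-fed WT mice of 22 weeks held a mean of 4214 normalized counts of Mgp, 156 of Comp, 56.0 of Tnfrsf11b and 36.3 of Bmp4. On the same scale Alpl had 17.3, Bmp2 14.8, Enpp1 12.0, Sox9 10.4, Nt5e 2.96 and Runx2 1.12. Mgp never fell below 1796 counts in a library, whereas Runx2 had 1 to 30 counts and Nt5e 3 to 63, so that differences of these last genes rest on few reads.

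**Figure D1:**
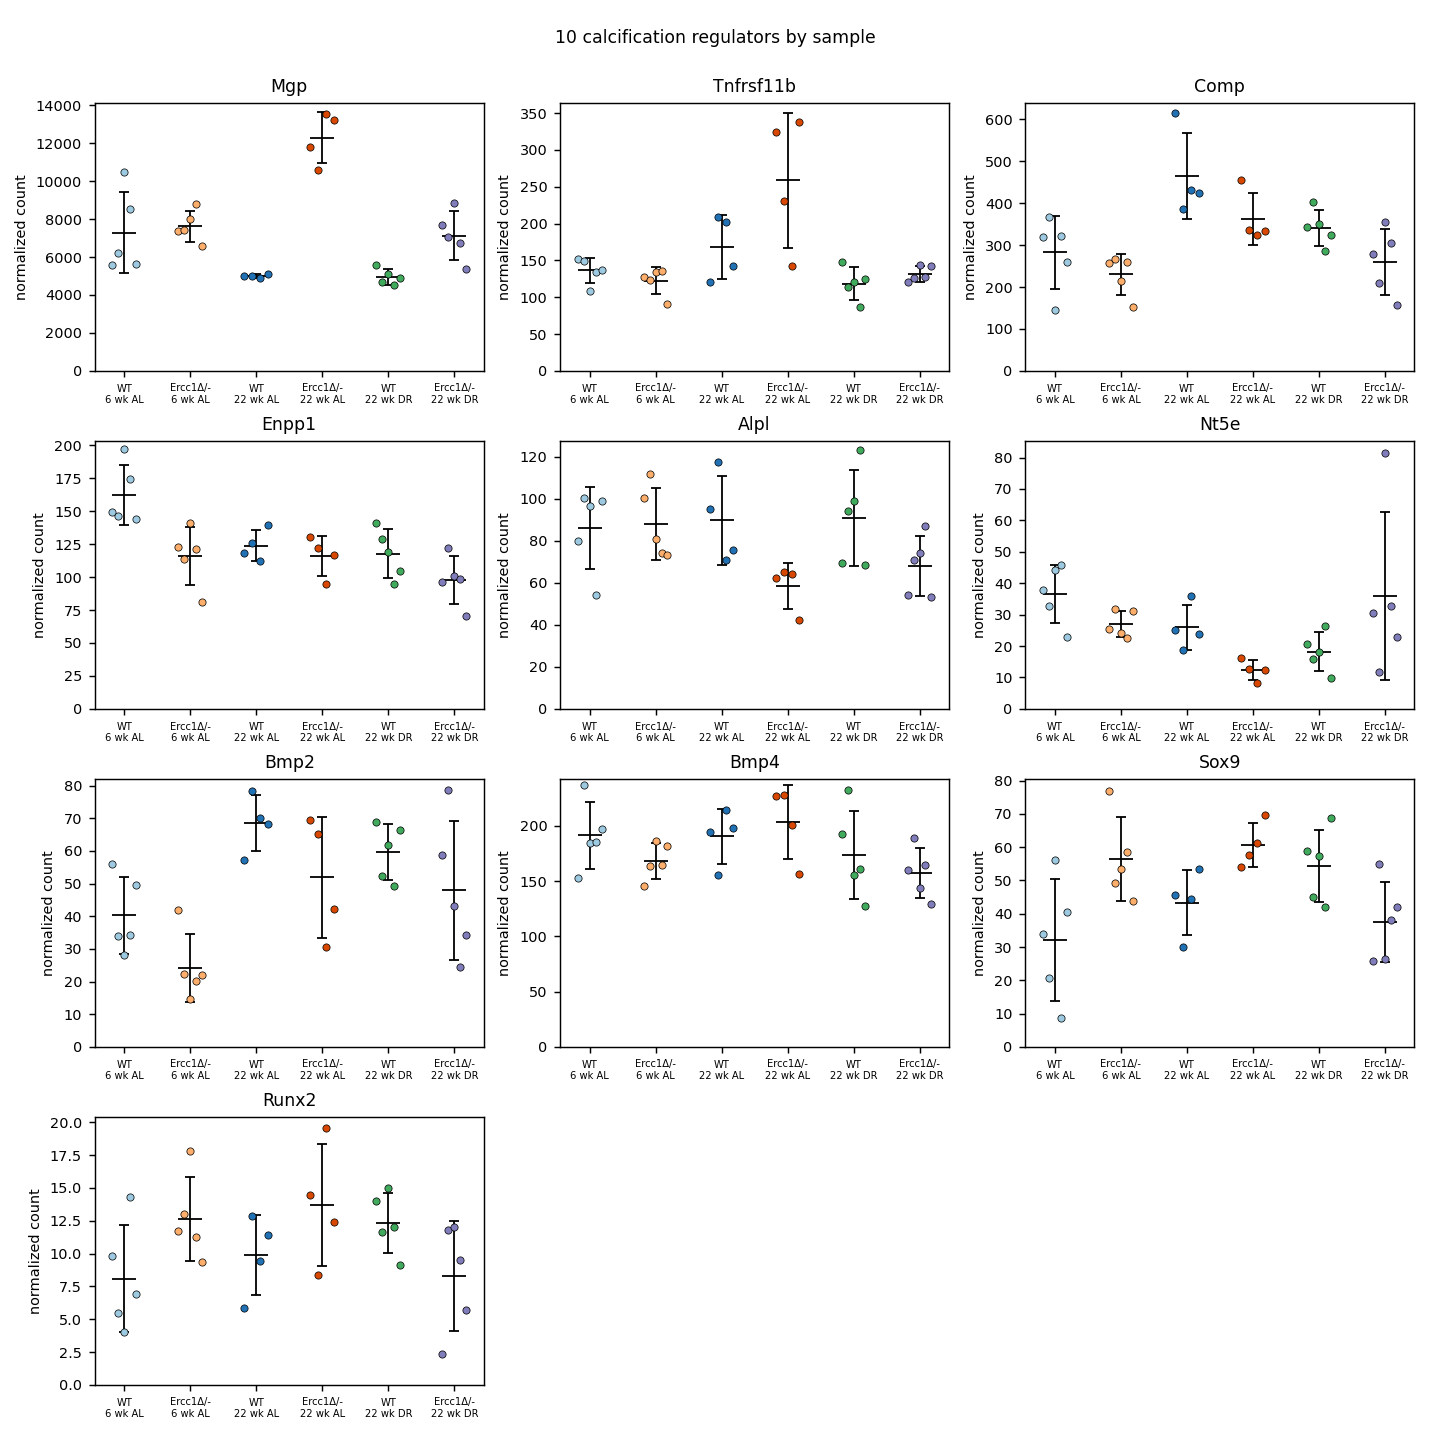
Normalized counts (linear axis from 0) of the 10 genes in the 28 libraries, by genotype, age and diet (AL, fed without limit; DR, dietary restriction). Points are mice, horizontal bars the group mean and whiskers 1 SD. Mgp in the 4 AL-fed Ercc1Δ/- mice of 22 weeks lies between 10602 and 13536, above the other 24 libraries.

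Mgp stood apart from the other 9 genes. Its product, MGP, is a small secreted protein that needs vitamin K to become active and keeps mineral and BMP2 in check in the wall of arteries and in cartilage. Mgp lies on chromosome 6 (GRCm39, 136849433 to 136852821, minus strand). In AL-fed Ercc1Δ/- mice of 22 weeks the level was 11819, 10602, 13536 and 13239. In AL-fed WT mice of 22 weeks it was 4994, 4989, 4902 and 5125. All 4 Ercc1Δ/- values lay far above the WT values, and the WT values hardly varied (coefficient of variation 1.84%).

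On DR the Ercc1Δ/- mice had Mgp levels of 7676, 7069, 8826, 6741 and 5346, all below those on AL. The WT mice on DR had 5598, 4684, 5126, 4520 and 4909, which overlapped the WT mice on AL. At 6 weeks the level was 7370, 7402, 8000, 8794 and 6580 in Ercc1Δ/- mice and 5578, 6193, 10482, 8557 and 5651 in WT mice. The WT group of 6 weeks was the most spread, and its 2 highest values came from its shallowest libraries, samples 011 and 019.

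The group means of Mgp fell in the order 12299 ± 1357 (SD, n = 4) for Ercc1Δ/- on AL at 22 weeks, 7629 ± 824 (n = 5) for Ercc1Δ/- at 6 weeks, 7292 ± 2157 (n = 5) for WT at 6 weeks, 7132 ± 1276 (n = 5) for Ercc1Δ/- on DR, 5002 ± 92.0 (n = 4) for WT on AL and 4967 ± 420 (n = 5) for WT on DR at 22 weeks. The 3 groups in the middle overlapped each other, as did both WT groups of 22 weeks.

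At 22 weeks on AL, Mgp was significantly higher in Ercc1Δ/- than in WT mice, by 2.44-fold (log2 fold change 1.28, SE 0.16, edgeR adjusted p = 2.48e-05). With 4 mice against 4 the exact permutation test gave p = 0.0286, the smallest it can give. Between 6 and 22 weeks Mgp rose 1.60-fold in Ercc1Δ/- mice (log2 0.68, SE 0.15, adjusted p = 0.00939), while in WT mice the log2 difference was -0.53 (SE 0.15, adjusted p = 0.20). The difference between these age effects was itself called (log2 1.21, SE 0.22, adjusted p = 0.00702). With DR, Mgp of Ercc1Δ/- mice reached 0.580 of its AL level (log2 -0.79, SE 0.11, adjusted p = 0.000194), whereas in WT mice the log2 difference was 0.00 (SE 0.11). The diet effect differed between genotypes (log2 -0.79, SE 0.15, adjusted p = 0.0349). On DR, Mgp was still higher in Ercc1Δ/- mice, by 1.44-fold (log2 0.52, SE 0.10, adjusted p = 0.00079), with 1 Ercc1Δ/- value inside the WT range. At 6 weeks no difference was called (log2 0.08, SE 0.14, adjusted p = 0.88).

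The level of Mgp varied with the depth of the libraries. Across all 28 libraries, with both measures centred within groups, its log2 level had Pearson r = -0.59 and Spearman rho = -0.48 with the log2 gene counts of the library, a description that includes the 6 shallow ones. Among libraries of 2000000 to 4000000 counts, the 2 Ercc1Δ/- mice on AL at 22 weeks had 10602 and 11819, the 5 Ercc1Δ/- mice of 6 weeks 6580 to 8794, the single WT mouse on AL at 22 weeks 4994 and the 2 WT mice on DR 4520 and 4684. Without the 6 libraries under 1500000 counts, the genotype difference at 22 weeks was 1.12 on AL (adjusted p = 8.3e-05) and 0.40 on DR (adjusted p = 0.0164). In the same fits the age difference in Ercc1Δ/- mice was 0.52 (adjusted p = 0.0232) and the diet difference -0.77 (adjusted p = 0.0275). The interactions were no longer called then (with age, log2 0.72, adjusted p = 0.0559, and with diet, log2 -0.76, adjusted p = 0.111).

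Sample 003, left out for its 400410 gene counts, had an Mgp level of 9525, the highest of any WT mouse of 22 weeks. With it in the fits the genotype difference on AL was 1.06 (adjusted p = 0.00127), while the age difference in Ercc1Δ/- mice (0.67, adjusted p = 0.0587) and the interactions with age (0.99, adjusted p = 0.132) and with diet (-0.54, adjusted p = 0.675) were not called. The interaction with diet was also lost on leaving out any 1 of samples 004, 013, 014, 017, 018, 020, 021, 022, 025 and 026, with values between -0.82 and -0.75 and adjusted p of 0.0511 to 0.105.

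**Figure D2:**
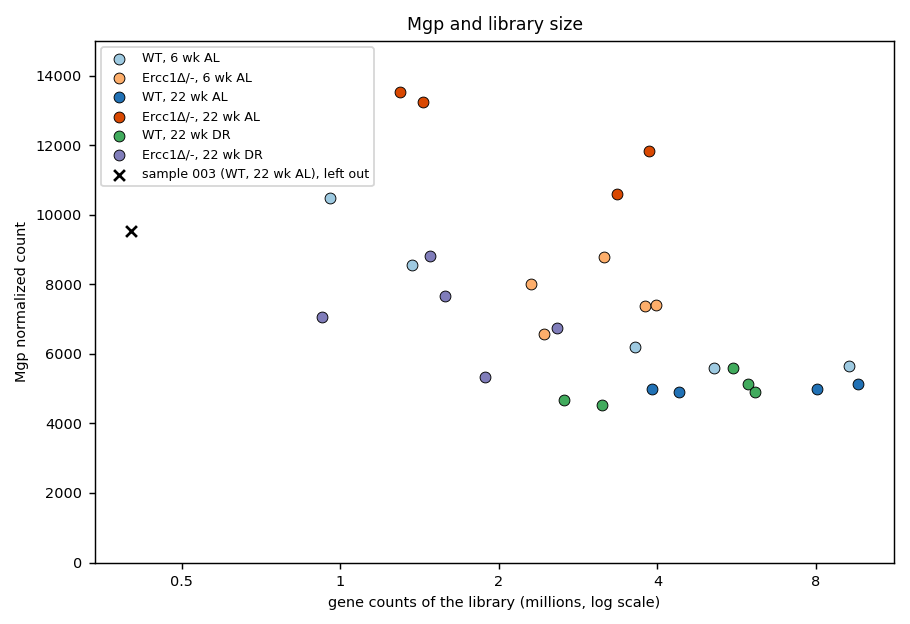
Normalized count of Mgp (linear axis) against the gene counts of each library (log axis), one point per mouse, coloured by group, with the left-out sample 003 as a cross. The 2 AL-fed Ercc1Δ/- libraries of 22 weeks between 2000000 and 4000000 counts lie at 10602 and 11819, above every WT library of that depth, and the shallow WT libraries of 6 weeks lie at 8557 and 10482.

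Seen over all 10 genes, between 0 and 4 were called in a comparison, given here beside the share of all tested genes. At 6 weeks 0 of the 10 were called between genotypes (1.70% of all tested genes were called, 1.13% as lower). An unadjusted p under 0.05 was reached by Enpp1, Bmp2 and Sox9 there, and DESeq2 called 0 of the 10 as well. At 22 weeks on AL 2 of the 10 were called, Mgp higher and Alpl lower (12.0% of all genes, 5.88% higher and 6.16% lower). From 6 to 22 weeks 4 of the 10 were called in Ercc1Δ/- mice, with Mgp, Tnfrsf11b and Bmp2 higher and Alpl lower (4.69%, 2.11% higher and 2.57% lower), and 0 in WT mice (0.235%), where Mgp, Enpp1, Bmp2 and Comp had an unadjusted p under 0.05 and DESeq2 also called 0. DR changed Mgp and Tnfrsf11b in Ercc1Δ/- mice, both downward (2 of 10, against 1.64% of all genes, with 0.648% of all higher), and 0 of the 10 in WT mice (1.28%, 0.939% lower), where Tnfrsf11b, Sox9 and Comp had an unadjusted p under 0.05 and DESeq2 again called 0. On DR 2 were called between genotypes, Mgp and Nt5e, both higher (13.0%, 5.97% higher). Of the interactions, Mgp alone was called, 1 of 10 with age (0.842%, 0.470% with a negative difference) and 1 of 10 with diet (0.0971%, 0.0567% positive and 0.0405% negative). The comparisons share groups and are not independent of each other. The 10 genes, and the lists below, were chosen with earlier results of these data known. Their counts beside the shares of all genes are therefore a description and no test.

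The median log2 fold change of the 10 genes was 0.01 between genotypes at 22 weeks on AL (0.03 for all genes) and -0.44 for DR in Ercc1Δ/- mice (0.00 for all genes). In that diet comparison 8 of the 10 genes lay below 0, the exceptions being Nt5e and Alpl. The groups did not overlap for 4 of the 10 genes between genotypes at 22 weeks on AL (Mgp, Sox9, Alpl and Nt5e, against 18.6% of all genes) and for 5 of the 10 between ages in Ercc1Δ/- mice (6.78% of all genes). Between ages in WT mice 4 of the 10 did not overlap (Mgp, Enpp1, Bmp2 and Comp, against 3.85%). The same held for 1 of the 10 for DR in Ercc1Δ/- mice (5.02%), 0 for DR in WT mice (5.14%) and 0 between genotypes on DR (8.27%).

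**Figure D3:**
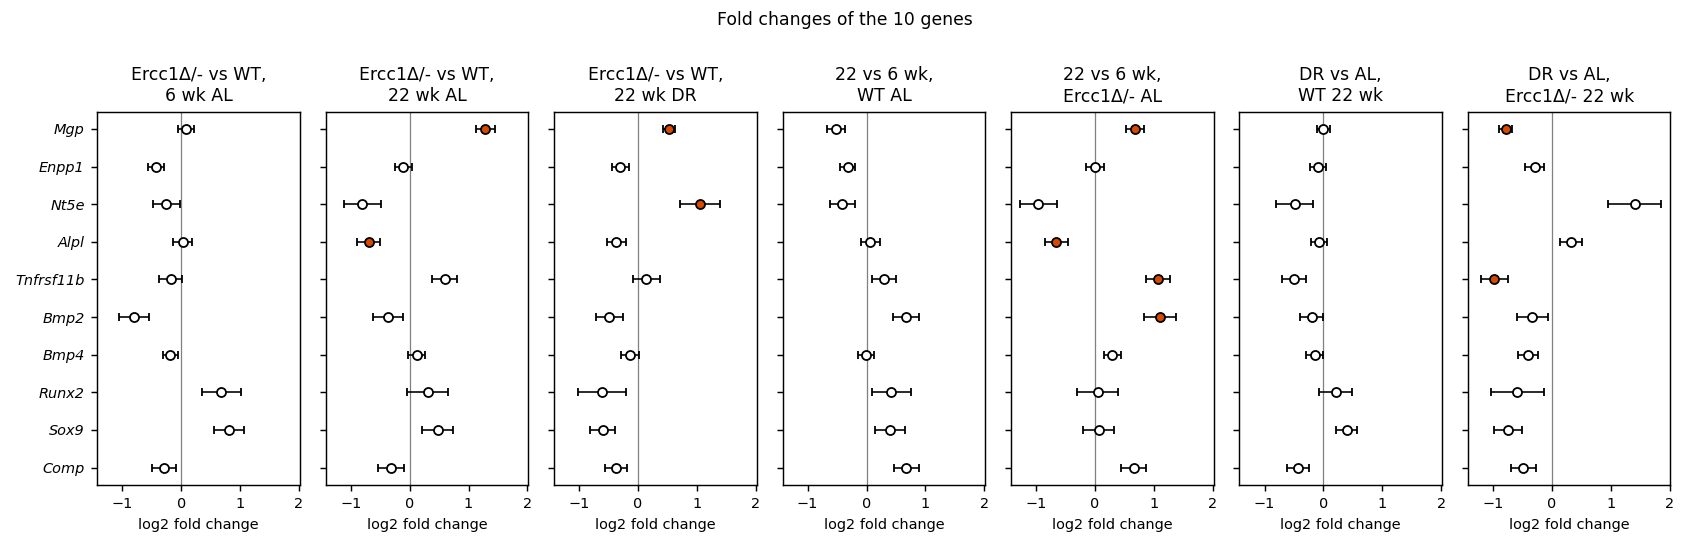
Log2 fold changes (horizontal axis, shared by all panels) of the 10 genes in the 7 comparisons, with whiskers of 1 SE. Filled points were called. The filled points are 1.28 for Mgp and -0.69 for Alpl between genotypes at 22 weeks on AL, 4 in the age comparison of Ercc1Δ/- mice, 2 for DR in Ercc1Δ/- mice and 2 between genotypes on DR.

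The other secreted inhibitors of mineral and the genes of the vitamin K cycle formed a list of 9, of which 6 were tested. At 22 weeks on AL, 4 of these 6 were higher in Ercc1Δ/- mice (5.88% of all genes were) and 0 were lower (6.16% of all genes; median log2 0.95, against 0.03 over all genes). Osteopontin (Spp1), an acidic phosphoprotein that binds crystals and is also made by macrophages, had 252, 143, 201 and 234 normalized counts in the Ercc1Δ/- mice and 3.88, 6.91, 6.84 and 2.28 in the WT mice. These groups were far apart, with a fold of 43.5 (log2 5.44, SE 0.59, adjusted p = 4.03e-06). The WT libraries held only 4 to 15 counts of Spp1 and the Ercc1Δ/- libraries 72 to 280, so the size of the fold is uncertain. On DR the Ercc1Δ/- mice had 44.7, 23.6, 45.6, 12.3 and 26.7, below every AL-fed Ercc1Δ/- mouse of that age (log2 -2.90, SE 0.29, adjusted p = 1.24e-06).

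Fetub and Ahsg encode the fetuins, plasma proteins made chiefly by the liver that keep calcium phosphate in solution. Fetub had 47.8, 53.6, 126 and 52.3 in AL-fed Ercc1Δ/- mice of 22 weeks and 8.29 to 13.3 in WT mice (log2 2.71, SE 0.28, adjusted p = 1.2e-06). Ahsg had 79.6 to 128 against 22.1 to 52.4 (log2 1.52, SE 0.23, adjusted p = 0.000189). Both were also higher on DR (Fetub log2 1.37 and Ahsg 0.95), and unlike Mgp and Spp1 neither was called lower on DR in Ercc1Δ/- mice. In WT mice DR raised Fetub from a mean of 11.1 to 25.9 (log2 1.27, SE 0.27, adjusted p = 0.0145) and lowered Ggcx, the carboxylase of the vitamin K cycle (log2 -0.44, SE 0.10, adjusted p = 0.0223). Gas6, a vitamin K-dependent ligand, rose less with genotype (log2 0.37, SE 0.11, adjusted p = 0.0247) and was lower on DR in Ercc1Δ/- mice (log2 -0.41, SE 0.10, adjusted p = 0.0288). The genotype calls of Spp1, Fetub and Ahsg on AL remained with any 1 of the 8 mice left out, and that of Gas6 was lost in 5 of the 8 fits.

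**Figure D4:**
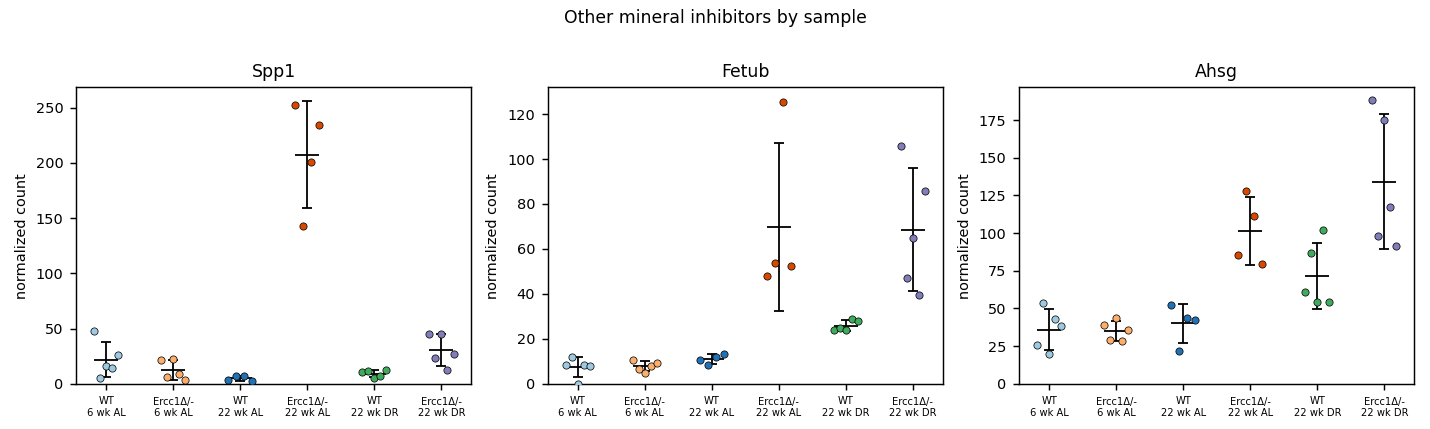
Normalized counts (linear axis from 0) of Spp1, Fetub and Ahsg by group, with points for mice, bars for group means and whiskers for 1 SD. Spp1 in AL-fed Ercc1Δ/- mice of 22 weeks lies between 143 and 252 and falls to between 12.3 and 45.6 on DR, while Fetub and Ahsg in Ercc1Δ/- mice on DR reach 106 and 188.

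Macrophage markers were called in comparisons in which Mgp and Spp1 were called, and also in some in which neither was. Of the 6 markers (Cd68, Adgre1, Csf1r, C1qa, C1qb, Mrc1), 5 were higher in AL-fed Ercc1Δ/- mice of 22 weeks than in WT mice (5.88% of all genes were). On DR 4 of the 6 were lower in Ercc1Δ/- mice (0.988% of all genes). At 6 weeks 1 of the 6 was higher in Ercc1Δ/- mice (0.567% of all genes), with a median log2 of 0.88. Mgp differed there by 0.08, and Spp1 had means of 12.6 in Ercc1Δ/- and 21.9 in WT mice. For DR in WT mice 1 of the 6 was lower (0.939% of all genes), where Mgp differed by 0.00. The summed level of the 6 markers was 1127 to 2078 in AL-fed Ercc1Δ/- mice of 22 weeks, 571 to 818 in the WT mice and 713 to 1372 in Ercc1Δ/- mice on DR. None of the 6 was at 0 in a whole group. The smooth muscle list went the other way, with 4 of 6 markers lower between genotypes on AL (6.16% of all genes) and sums of 67086 to 103844 against 122780 to 146283. For DR in Ercc1Δ/- mice 0 of 6 were called (1.64% of all genes). Within groups the log2 level of Mgp had a Pearson r of 0.16 with the macrophage sum and of -0.10 with the smooth muscle sum over 28 libraries, 2 of 70 such relations computed without a test. The part of these cell types in the differences was not tested. In whole tissue, fewer cells of a type and less RNA per cell cannot be told apart.

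The enzymes of the cell surface considered here handle ATP and pyrophosphate. ENPP1 splits ATP into AMP and pyrophosphate, CD73 (Nt5e) turns AMP into adenosine, which restrains the phosphatase, and tissue-nonspecific alkaline phosphatase (Alpl) destroys pyrophosphate. Alpl has 2 starts in RefSeq, and counts over the whole gene do not tell which of them was used. The 250 bases before each start are shown here because Alpl was called lower in aged Ercc1Δ/- mice and the starts differ in kind. Both are from RefSeq on GRCm38.p6, minus strand, 5′ to 3′, with capitals for GGCGCC, a GC element of BMP-responsive genes that reads alike on both strands.
Alpl distal start, chr4:137796385-137796634: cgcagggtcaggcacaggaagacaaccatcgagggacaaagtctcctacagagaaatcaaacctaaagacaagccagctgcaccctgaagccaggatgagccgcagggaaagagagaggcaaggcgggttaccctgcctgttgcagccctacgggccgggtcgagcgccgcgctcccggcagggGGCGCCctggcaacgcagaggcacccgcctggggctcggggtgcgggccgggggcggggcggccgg
Alpl proximal start, chr4:137766476-137766725: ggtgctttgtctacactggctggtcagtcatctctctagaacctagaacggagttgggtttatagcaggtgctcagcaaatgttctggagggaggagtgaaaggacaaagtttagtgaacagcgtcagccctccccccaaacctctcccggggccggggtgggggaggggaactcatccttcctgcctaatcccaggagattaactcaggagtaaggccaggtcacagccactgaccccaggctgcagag
The distal stretch held 20 CpG dinucleotides at 68.4% GC and 1 GGCGCC at 66 bases before the start. The proximal stretch held 4 CpG at 56.0% GC and no GGCGCC. Among the 32851 promoters of the table, 9.59% hold GGCGCC in the same window. RefSeq promoters were matched for 5 of the 10 genes (Enpp1, Nt5e, Alpl, Bmp4 and Runx2), 6 stretches in all, of which the distal Alpl stretch was the 1 with GGCGCC.

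Alpl (chromosome 4, 137469039 to 137524102, minus strand) had 62.2, 65.1, 64.2 and 42.3 normalized counts in AL-fed Ercc1Δ/- mice of 22 weeks. The WT mice had 95.1, 117, 70.9 and 75.6, so the groups did not overlap (log2 -0.69, SE 0.19, adjusted p = 0.0181). At 6 weeks the Ercc1Δ/- mice had 100, 112, 81.0, 74.3 and 73.5, all above those of 22 weeks (log2 -0.65, SE 0.19, adjusted p = 0.0465), a call lost without any 1 of samples 002, 004, 005, 008, 015 and 026 (values of -0.67 to -0.57). The only female among the WT mice on AL, sample 018, had the highest level of them. Without that sample the genotype difference was -0.56 (adjusted p = 0.13), and without a sex term -0.60 (adjusted p = 0.0516), so that neither passed. The genotype call was also lost without sample 004 or 026. The same held with thinned libraries and without the libraries under 1500000 counts (adjusted p up to 0.061). The age call was lost in 5 of 10 other settings, among them these (adjusted p up to 0.119). On DR the Ercc1Δ/- mice had 53.3 to 87.3 and the WT mice 68.7 to 123 (log2 -0.37, SE 0.16, adjusted p = 0.12). The diet difference in Ercc1Δ/- mice was 0.32 (SE 0.19, adjusted p = 0.43).

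Enpp1 was not called in any comparison. Its group means lay between 97.6 ± 18.3 (SD, n = 5) in Ercc1Δ/- mice on DR and 162 ± 22.8 (n = 5) in WT mice of 6 weeks. At 6 weeks the WT mice had 150, 146, 197, 174 and 144, and the Ercc1Δ/- mice 123, 114, 141, 122 and 81.4. These values did not overlap (exact permutation test, p = 0.00794, the smallest that 5 against 5 allow, with 2.87% of all genes also free of overlap), but the difference did not pass over all genes (log2 -0.43, SE 0.13, adjusted p = 0.11). At 22 weeks on AL the log2 difference was -0.11 (SE 0.15).

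Nt5e was measured with 3 to 63 counts per library. In AL-fed Ercc1Δ/- mice of 22 weeks it had 16.2, 12.6, 8.37 and 12.4 normalized counts, below the 25.2, 18.9, 35.9 and 23.9 of WT mice. The difference was not called (log2 -0.80, SE 0.31, adjusted p = 0.084), but it was without a sex term (edgeR adjusted p = 0.042). On DR the Ercc1Δ/- mice had 30.6, 11.8, 81.6, 32.7 and 22.9, and the WT mice 20.7, 16.0, 18.2, 26.4 and 9.73. The log2 difference of 1.05 (SE 0.34) was called with an adjusted p of 0.0465, but the ranges overlapped and the highest value, 81.6, came from 1 library, sample 016. Without it the difference was 0.58 (adjusted p = 0.295). Sample 016 also had the highest lymphoid marker sum of all libraries, 40.8, against 0 to 5.21 in WT mice on DR, and a macrophage sum of 1372. Its endothelial sum was 4424, against 1502 to 3226 in WT mice on DR. Within groups, the log2 level of Nt5e had Pearson r = 0.45 and Spearman rho = 0.63 with the endothelial sum. With the macrophage sum these were 0.46 and 0.44, all computed over 28 libraries without a test. The part of these cell types in the Nt5e level of sample 016 was not tested.

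Of the 11 genes in the wider list of pyrophosphate, phosphate and adenosine handling 8 were tested, and 1 was called in each of 3 comparisons. Over all genes 12.0% were called between genotypes at 22 weeks on AL, 1.64% for DR in Ercc1Δ/- mice and 13.0% between genotypes on DR. Entpd1, the ecto-enzyme that turns ATP and ADP into AMP, was lower in AL-fed Ercc1Δ/- mice of 22 weeks (log2 -0.41, SE 0.13, adjusted p = 0.0371). Ank, the exporter needed for extracellular pyrophosphate, was lower on DR in Ercc1Δ/- mice (log2 -0.47, SE 0.12, adjusted p = 0.0391). Smpd3, a sphingomyelinase needed for bone mineral, was higher in Ercc1Δ/- than in WT mice on DR (log2 1.04, SE 0.21, adjusted p = 0.00128). With single mice left out, the call of Entpd1 was lost in 5 of 8 fits and that of Ank in 7 of 9, while that of Smpd3 remained in all 10. The median of the list was 0.15 between genotypes on AL at 22 weeks, against 0.03 over all genes.

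Tnfrsf11b (osteoprotegerin, chromosome 15, 54114015 to 54142075, minus strand) was called with age and with diet in Ercc1Δ/- mice. The AL-fed Ercc1Δ/- mice had 128, 124, 134, 135 and 90.7 normalized counts at 6 weeks and 325, 230, 142 and 338 at 22 weeks. Every mouse of 22 weeks lay above every mouse of 6 weeks (log2 1.07, SE 0.21, adjusted p = 0.00378). On DR the Ercc1Δ/- mice had 120, 126, 144, 127 and 143, close to the 6-week level, and the difference from AL was -0.97 (SE 0.23, adjusted p = 0.0414). The ranges overlapped through sample 013 at 142, the shallowest library of the AL group and the one with the high skeletal muscle sum. This diet call was lost on leaving out any 1 of 8 of the 9 libraries compared, with values between -1.05 and -0.80 and adjusted p up to 0.13.

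In WT mice Tnfrsf11b had 121, 209, 202 and 142 on AL at 22 weeks and 86.3 to 148 on DR (log2 -0.50, SE 0.21, adjusted p = 0.30). Between genotypes on AL at 22 weeks the difference of 0.59 (SE 0.21) was not called (adjusted p = 0.073), and with all 6 groups in the fit it was (0.63, adjusted p = 0.027). The age effect did not pass the test of a difference between genotypes (log2 0.77, SE 0.29, adjusted p = 0.28), nor did the diet effect (log2 -0.47, SE 0.31, adjusted p = 0.72).

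The other genes of the RANK ligand axis numbered 9, of which 5 were tested. Tnfrsf11a, which encodes the receptor RANK, was lower in Ercc1Δ/- mice at 6 weeks (log2 -0.60, adjusted p = 0.0404), at 22 weeks on AL (log2 -0.63, adjusted p = 0.0158) and on DR (log2 -0.41, adjusted p = 0.0449). Its means were 103 ± 27.2 (SD, n = 4) in Ercc1Δ/- and 161 ± 18.8 (n = 4) in WT mice on AL at 22 weeks. With single mice left out, the call was lost in 7 of 10 fits at 6 weeks, 3 of 8 at 22 weeks on AL and 7 of 10 on DR. Ctsk, the collagen-cutting protease of osteoclasts and some fibroblasts, fell with age in both genotypes (log2 -0.66 in WT and -0.71 in Ercc1Δ/- mice). RANK ligand itself, Tnfsf11, had at most 2 counts in a library and was not tested.

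Bmp2 and Bmp4 encode ligands that start the bone and cartilage programme through SMAD1, SMAD5 and SMAD9. Bmp2 (chromosome 2, 133394079 to 133404816, plus strand) rose with age in Ercc1Δ/- mice, from 41.9, 22.3, 14.6, 20.3 and 21.9 to 69.4, 65.1, 30.7 and 42.3 (log2 1.11, SE 0.28, adjusted p = 0.0186). The ranges overlapped through sample 002 of 6 weeks at 41.9, and the call was lost without sample 004 (0.97, adjusted p = 0.111), 005, 008 or 023. In WT mice Bmp2 had 55.9, 33.8, 28.1, 34.3 and 49.6 at 6 weeks and 57.2, 78.3, 70.1 and 68.4 at 22 weeks, which did not overlap (3.85% of all genes were as free of overlap), but the difference was not called (log2 0.67, SE 0.23, adjusted p = 0.29). The age effects were not shown to differ between genotypes (log2 0.44, SE 0.36, adjusted p = 0.71). At each age the Ercc1Δ/- mean was the lower one, 24.2 ± 10.4 against 40.3 ± 11.8 (SD, n = 5 each) at 6 weeks and 51.9 ± 18.5 against 68.5 ± 8.67 (n = 4 each) at 22 weeks on AL, without a call (log2 -0.80, adjusted p = 0.13, and -0.37, adjusted p = 0.37). Without sample 002 the difference at 6 weeks was called (log2 -1.18, adjusted p = 0.0216).

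Bmp4 (chromosome 14) was not called in any comparison. Its group means ran from 157 ± 22.4 (SD, n = 5) in Ercc1Δ/- mice on DR to 203 ± 33.4 (n = 4) in Ercc1Δ/- mice on AL at 22 weeks. The largest of its 7 differences was the -0.40 (SE 0.17, adjusted p = 0.24) of DR in Ercc1Δ/- mice. Of 7 other BMP ligands 3 were tested and 0 were called. None of these 3 had a call in edgeR in any of the 9 comparisons.

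BMP receptors and SMADs made a list of 14, with 13 tested. In AL-fed mice of 22 weeks 3 of the 13 were called between genotypes (12.0% of all genes). Smad1 (log2 -0.60, SE 0.16, adjusted p = 0.012) and the receptor Bmpr1a (log2 -0.34, SE 0.11, adjusted p = 0.0459) were lower in Ercc1Δ/- mice. The co-receptor endoglin (Eng, log2 0.45, SE 0.12, adjusted p = 0.0168) was higher. Eng was lower again on DR in Ercc1Δ/- mice (log2 -0.40, SE 0.09, adjusted p = 0.0213). Between genotypes on DR 4 of the 13 were lower (7.03% of all genes) and 0 higher, namely Smad1, Smad6, Smad7 and Smad9. Smad9, a BMP signal transducer, differed by -0.83 (SE 0.22, adjusted p = 0.0108) and Smad1 by -0.46 (SE 0.14, adjusted p = 0.0323). The Smad1 call on DR was lost in 6 of 10 fits with 1 mouse left out. Of 10 tested antagonists and modulators, Nbl1, a secreted BMP antagonist, was higher (log2 0.60, SE 0.12, adjusted p = 0.0015) and Fstl1, a follistatin-like glycoprotein, was lower (log2 -0.52, SE 0.11, adjusted p = 0.0027) in AL-fed Ercc1Δ/- mice of 22 weeks. Chrdl1, a chordin-like antagonist, rose with age in Ercc1Δ/- mice (log2 1.47, SE 0.30, adjusted p = 0.00507), and Fstl3, an inhibitor of activins, was lower in Ercc1Δ/- mice on DR (log2 -0.45, SE 0.11, adjusted p = 0.0063). The call of Bmpr1a was lost on leaving out any 1 of the 8 mice compared, and that of Eng between genotypes in 2 of the 8 such fits. All 3 genotype calls on AL were lost with thinned libraries and without the libraries under 1500000 counts. In the alternative settings the adjusted p reached 0.225 for Smad1, 0.244 for Eng and 0.192 for Bmpr1a.

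The 8 genes that BMP signalling switches on were all tested. On AL at 22 weeks 0 of 8 were called between genotypes (median log2 -0.36, against 0.03 over all genes), although Id4 and Smad7 had an unadjusted p under 0.05. On DR 6 of 8 were lower in Ercc1Δ/- mice (7.03% of all genes were lower) with a median of -0.67 against 0.00. They were the inhibitory SMADs Smad6 and Smad7, the inhibitors of differentiation Id2 and Id3, the transcription factor Atoh8 and the decoy receptor Bambi.

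Bambi had 91.8, 70.8, 67.2, 65.5 and 93.4 normalized counts in Ercc1Δ/- mice on DR and 171, 167, 152, 122 and 139 in WT mice on DR, without overlap (log2 -0.95, SE 0.14, adjusted p = 5.91e-05). Id3 had 513, 500, 689, 450 and 471 against 887, 665, 808, 682 and 850, with 1 Ercc1Δ/- mouse inside the WT range (log2 -0.58, SE 0.11, adjusted p = 0.000549). Atoh8 differed by -0.83 (SE 0.13, adjusted p = 0.000133). All 6 calls remained with any 1 of the 10 mice left out, but that of Smad6 was lost with all 6 groups in the fit and with thinned libraries (adjusted p up to 0.283). In the same comparison 5 of 6 smooth muscle markers were lower in Ercc1Δ/- mice (7.03% of all genes, sums of 89196 to 96449 against 124147 to 160009). Of 5 endothelial markers 3 were higher (5.97% of all genes, sums of 2904 to 4994 against 1502 to 3226). The part of these cell types in the differences was not tested. The diet effects on these 8 genes were not shown to differ between genotypes, as none passed the interaction test in edgeR (smallest adjusted p 0.28). The medians of their diet effects were 0.22 in WT and -0.22 in Ercc1Δ/- mice.

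**Figure D5:**
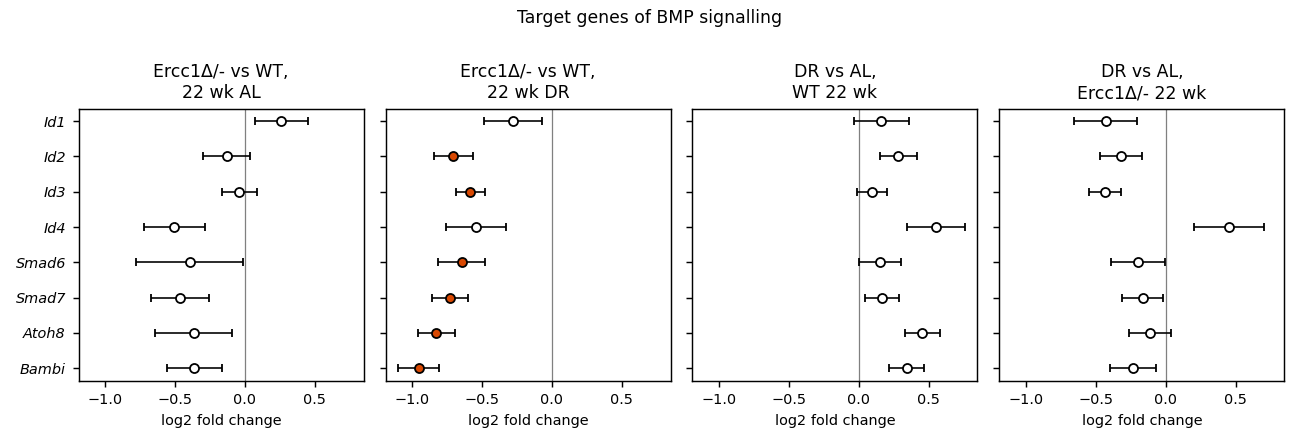
Log2 fold changes (horizontal axis, shared by all panels) of 8 target genes of BMP signalling with whiskers of 1 SE, between genotypes at 22 weeks on AL and on DR and between diets in each genotype. Filled points were called. The 6 filled points are, all between genotypes on DR, and run from -0.58 for Id3 to -0.95 for Bambi.

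Of these 8 genes, 5 were matched to a promoter in the RefSeq table (Id2, Id3, Id4, Smad6 and Atoh8). Of the 5 stretches of 250 bases 2 held GGCGCC, Id2 and Id4, against 9.59% of all promoters. The matching left out 1 chromosome, which the share over all promoters included. It therefore does not tell whether the other genes have a promoter in the table or hold the element. The stretch of Id2 is shown as the 1 among these 5 that both holds the element and belongs to a gene called on DR (RefSeq, GRCm38.p6, minus strand, 5′ to 3′, capitals for GGCGCC).
Id2, chr12:25096093-25096342: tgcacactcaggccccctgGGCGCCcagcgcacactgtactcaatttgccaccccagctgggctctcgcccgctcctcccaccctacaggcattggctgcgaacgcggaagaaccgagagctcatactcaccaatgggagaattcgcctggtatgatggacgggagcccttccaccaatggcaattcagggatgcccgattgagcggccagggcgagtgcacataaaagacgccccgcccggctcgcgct
The match lies 231 bases before the start. It is a match of letters and not a measured binding site.

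Runx2 and Sox9 are the transcription factors of bone and cartilage. Sox9 (chromosome 11) had 54.1, 57.8, 61.4 and 69.7 normalized counts in AL-fed Ercc1Δ/- mice of 22 weeks, just above the 45.6, 29.9, 44.4 and 53.5 of WT mice. The groups did not overlap, but the difference was not called (log2 0.48, SE 0.27, adjusted p = 0.28). With the compared groups alone in the fit it was called (edgeR adjusted p = 0.0385). On DR the means lay in the opposite order, with 25.9, 55.1, 26.4, 38.2 and 41.9 in Ercc1Δ/- and 58.8, 45.0, 57.3, 42.0 and 68.7 in WT mice (log2 -0.60, SE 0.22, adjusted p = 0.062). The test of a diet effect that differed between genotypes gave log2 -1.14 (SE 0.30, edgeR adjusted p = 0.20). At 6 weeks the Ercc1Δ/- mice had 43.8 to 77.0 and the WT mice 8.56 to 56.2 (log2 0.82, SE 0.25, adjusted p = 0.11).

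Runx2 (chromosome 17) was close to the limit of detection, with more than 10 counts in 12 of 28 libraries. Its group means ran from 8.09 ± 4.07 (SD, n = 5) to 13.7 ± 4.62 (n = 4). The differences were between -0.62 and 0.68 with SEs of 0.28 to 0.45, so that no difference was detectable at this depth. Runx2 also overlaps 5 other annotated genes, among them Supt3 on the opposite strand, and whether the counting used strand is not given in the sources used here.

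Of 17 genes of bone formation 11 were tested. At 22 weeks on AL 4 of the 11 were called between genotypes (12.0% of all genes), with Spp1 and Cbfb, the partner of RUNX2 on DNA, higher and both collagen I genes lower in Ercc1Δ/- mice. Cbfb differed by 0.42 (SE 0.14, adjusted p = 0.0475), a call lost on leaving out any 1 of the 8 mice. The collagen I genes were lower in AL-fed Ercc1Δ/- mice of 22 weeks (Col1a1 log2 -0.65, adjusted p = 0.0323, Col1a2 -0.67, adjusted p = 0.00241) and fell with age in Ercc1Δ/- mice (Col1a1 log2 -1.84, Col1a2 -1.53, together with Sparc at -1.67). Col1a2 and Sparc also fell with age in WT mice (log2 -0.65 and -1.10). With single mice left out, the genotype call of Col1a1 on AL was lost in 5 of 8 fits and the age call of Col1a2 in WT mice in 6 of 9. Ibsp, the bone sialoprotein that seeds mineral, rose with age in both genotypes (log2 1.29, adjusted p = 0.0224, in WT and 1.59, adjusted p = 0.0012, in Ercc1Δ/- mice), from means of 23.8 and 19.5 normalized counts to 67.9 and 61.0. The WT call of Ibsp was lost in 4 of 9 fits with 1 mouse left out, with all 6 groups in the fit, with thinned libraries and without the shallow libraries. On DR, Msx1, a homeobox gene of early bone formation, was lower in Ercc1Δ/- mice (log2 -0.73, SE 0.20, adjusted p = 0.0124). Of the 4 bone markers (Bglap, Ibsp, Dmp1 and Sp7) only Ibsp was tested. Bglap had at most 2 counts in a library, Sp7 at most 5 and Dmp1 at most 6. Bglap and Sp7 were at 0 throughout Ercc1Δ/- mice on DR. The sum of the 4 markers, which includes Ibsp, had medians of 25.7 in WT and 26.6 in Ercc1Δ/- mice at 6 weeks. At 22 weeks these were 66.7 and 65.8 on AL and 94.4 and 83.8 on DR.

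Comp (chromosome 8) encodes a large matrix protein of cartilage and tendon that arterial smooth muscle also makes. It had 319, 368, 145, 323 and 259 normalized counts in WT mice of 6 weeks and 615, 386, 432 and 425 in AL-fed WT mice of 22 weeks, which did not overlap (log2 0.67, SE 0.21, adjusted p = 0.25). In Ercc1Δ/- mice it went from 152 to 266 at 6 weeks to 324 to 456 at 22 weeks, again without overlap (log2 0.66, SE 0.22, adjusted p = 0.095). DESeq2 called the second of these (log2 0.66, adjusted p = 0.0368). The age effects of both genotypes were close (log2 difference -0.02, SE 0.30). On DR the level was lower in each genotype without a call (log2 -0.44, adjusted p = 0.32, in WT and -0.48, adjusted p = 0.27, in Ercc1Δ/- mice). Between genotypes the log2 difference was -0.30 at 6 weeks, -0.31 at 22 weeks on AL and -0.37 on DR, none called.

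Of 24 cartilage genes 13 were tested and 11 were too low to test. Among the latter Col2a1, the collagen that defines hyaline cartilage, had 0 to 15 counts in a library with a median of 2.5. Matn1 was at 0 in 5 of 6 groups. Among those tested, 3 were lower (6.16% of all genes) and 1 higher (5.88%) in AL-fed Ercc1Δ/- mice of 22 weeks (median log2 -0.35). The proteoglycan aggrecan (Acan), a main component of cartilage, was lower in Ercc1Δ/- mice at 6 weeks (110 ± 33.9 against 269 ± 46.8, SD, n = 5 each, log2 -1.27, edgeR adjusted p = 0.0269) and on DR (74.6 ± 36.8 against 220 ± 71.0, n = 5 each, log2 -1.57, edgeR adjusted p = 0.00189), and was not called at 22 weeks on AL. The call at 6 weeks was lost in 6 of 10 fits with 1 mouse left out. Cilp, a matrix protein of cartilage, fell with age in WT (log2 -1.06, adjusted p = 0.0222, lost in 6 of 9 such fits) and in Ercc1Δ/- mice (log2 -1.69, adjusted p = 0.000112), Cilp2 in Ercc1Δ/- mice (log2 -2.25, adjusted p = 0.000356), and Cilp was lower between genotypes on AL (log2 -0.81, adjusted p = 0.0424, lost in 6 of 8 such fits). Ihh, the hedgehog ligand of growth cartilage, had a mean of 3.26 ± 1.64 (SD, n = 4) against 24.9 ± 3.71 in WT mice (log2 -3.07, SE 0.57, adjusted p = 4.9e-05). The Ercc1Δ/- libraries held 1 to 3 counts of Ihh each, close to the limit of detection, and the deeper WT libraries 25 to 65. Fmod, a proteoglycan of tendon and valve as well as cartilage, had 103 ± 63.0 against 484 ± 76.9 (log2 -2.10, SE 0.34, adjusted p = 0.00104). Prg4, the joint lubricant lubricin, had 920 ± 231 against 112 ± 48.5 (log2 3.12, SE 0.35, adjusted p = 9.79e-05). The cartilage marker list summed to 185 to 428 normalized counts in these Ercc1Δ/- mice and 220 to 383 in WT mice, and the tendon and valve list of 4 genes to 62.2 to 219 against 462 to 643. Fmod is itself 1 of these 4 genes and makes up most of that sum, so the sum largely restates its difference. The part of adjoining valve or tendon-like tissue in these values was not tested.

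For each of the genes, the tested genes whose log2 level followed it most closely within groups were named, over 28 libraries that differ in depth. Mgp was followed by Cst3, the protease inhibitor cystatin C (Pearson r = 0.81), then by Grcc10 (0.74) and Msrb3 (0.74). Tnfrsf11b was followed by Cacna1d (0.76), Rad23b (0.76) and Ccdc39 (0.75). Alpl went with Itih4 (0.77), Ppp1r13b (0.74) and Gm13841 (0.69), and Bmp2 with Hmgcs1 (0.79), Fggy (0.74) and Plrg1 (0.71). Enpp1 went with Actr2 (0.82), Zfp958 (0.74) and Bnip2 (0.73), and Bmp4 with Lasp1 (0.75), Cops6 (0.72) and Ap5m1 (0.68). Nt5e was followed by the lysosomal protease gene Ctss (0.82), the immunoglobulin gene Ighm (0.79) and Nudcd2 (0.79). Without sample 016 these values were 0.79, 0.62 and 0.71. Runx2 went with Gm11734 (0.78), Nmral1 (0.73) and Pofut1 (0.72), Sox9 with Gfra1 (0.75), 2700038G22Rik (0.75) and Zfp335 (0.75), and Comp with Snap23 (0.75), Phf10 (0.72) and Eif3c (0.71). No gene of the list of 10 was among the closest of another.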

How the data were processed

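Aortic arches, perfused with PBS, gave 1 RNA library per mouse. The authors aligned reads with STAR 2.7.10a to GRCm39, removed duplicates by molecular identifier with UMI-tools 1.1.2 and deposited HTSeq 2.0.2 counts per gene over whole gene bodies, without normalization. The table holds 56748 genes and 5 summary lines, left out here, which took 12.6 to 18.7% of the counts. The strand setting is not given in the sources used here. The 28 libraries held 921167 to 9616382 gene counts (median 3256708), and sample 003 held 400410.

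A gene was kept if over 10 libraries of the 28 held over 10 counts of it (12353 genes). The test was edgeR 4.0.16 (R 4.3.3) with TMM scaling (factors 0.935 to 1.07), quasi-likelihood and a model of group and sex, fitted over the 18 AL-fed mice for genotype and age and the 18 mice of 22 weeks for diet. Calls needed a change of 1.2-fold (log2 0.263) and a p, adjusted after Benjamini and Hochberg, no larger than 0.05, and interactions the adjusted p alone. Exact permutation tests were two-sided. DESeq2 1.42.0, other scaling, filters, sexless, pooled and smaller fits, thinned libraries and single samples left out were the alternatives. The script was tested on simulated data. Each mouse gave 1 library, and the p-values set differences between groups against the variation between mice. All 10 genes are named. Of the pathway lists, called genes are given by count, with values for at most the 3 of smallest p per list and comparison, and for each of the 10 genes the 3 most alike by correlation are named. Values of Gas6, Cbfb and Cilp on AL, Id3 and Smad1 on DR and Ibsp with age in Ercc1Δ/- mice were added after they were seen. The 10 genes and the lists were chosen with earlier results of these data known.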

Additional observations from a re-analysis of the deposited data

Results flagged for a closer look

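Of 60 groups of 4 or 5 mice checked for a sample far from the others (10 genes in 6 groups), 4 held one, and chance gives about 1 in 20. Sample 026 had the lowest Alpl of the AL-fed Ercc1Δ/- mice of 22 weeks, 42.3 normalized counts with the next at 62.2. Sample 027 had the lowest Tnfrsf11b of the Ercc1Δ/- mice of 6 weeks, 90.7 with the next at 124. Sample 002 had the highest Bmp2 of the same group, 41.9 with the next at 22.3. Sample 004 had the highest Comp of the AL-fed Ercc1Δ/- mice of 22 weeks, 456 with the next at 335.

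The effect of age differed between genotypes by the interaction test of edgeR for Mgp (log2 1.21, adjusted p = 0.00702), Spp1 (6.46, adjusted p = 0.000354), Fetub (2.77, adjusted p = 0.00488), Ahsg (1.62, adjusted p = 0.0179), Prg4 (3.35, adjusted p = 0.00488) and Nbl1 (0.80, adjusted p = 0.013). It differed in the other direction for Fstl1 (-0.78, adjusted p = 0.00793), Col1a2 (-0.88, adjusted p = 0.0166) and Ihh (-2.40, adjusted p = 0.0479), which lost the call in 16 of 18 fits with 1 mouse left out. The effect of diet differed for Mgp (-0.79, adjusted p = 0.0349) and Spp1 (-3.87, adjusted p = 0.000655). The age value of Spp1 joins a rise in Ercc1Δ/- mice (log2 4.05) with a fall of the WT mean from 21.9 to 4.98. The WT libraries of 22 weeks on AL held 4 to 15 counts of Spp1, and those of 6 weeks 0 to 19 counts of Fetub. The sizes of these 2 differences are therefore uncertain.

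Sample 003, which was left out of the comparisons and enters only as an alternative setting, lay above the 4 other AL-fed WT mice of 22 weeks in Mgp (9525, against at most 5125) and in Enpp1 (180, against at most 139).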

How the results depend on the processing

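No value of the 10 genes that was called changed sign under any alternative. With 1 sample left out, 958 of 1000 values kept their side of the threshold, 38 lost a call and 4 gained one, and under the other settings 848 of 880 did, with 23 lost and 9 gained. The genotype difference of Mgp at 22 weeks on AL stayed called in every fit, between 1.06 and 1.34.

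Of the 10 genes, the number called between genotypes at 22 weeks on AL was 1 with thinned libraries and 1 without the libraries under 1500000 counts (chosen after seeing the data), and 1 to 3 with single samples left out. For age in Ercc1Δ/- mice it was 2 with sample 003 added and 2 to 4 with single samples left out. For DR in Ercc1Δ/- mice it was 1 without the shallow libraries and 1 to 2 with single samples left out. Between genotypes on DR it was 1 with sample 003, with the compared groups alone, with thinning, with the earlier dispersion method of edgeR (also chosen after seeing the data) and without the shallow libraries, and 1 to 3 with single samples left out. The age interaction had 0 with sample 003 and without the shallow libraries. The diet interaction had 0 with sample 003, without the sex term, with all 6 groups and without the shallow libraries, and 0 to 1 with single samples left out. At 6 weeks it was 0 to 1. The cause was not tested.

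Over all genes, counts moved by more than 1.5 times under these settings. DESeq2 gave 378 against 210 (genotype at 6 weeks), 106 against 29 (age in WT), 348 against 202 (diet in Ercc1Δ/-), 197 against 104 (age interaction) and 43 against 12 (diet interaction). No low-count filter gave 70 (age in WT), 307 against 158 (diet in WT) and 39 (diet interaction). Sample 003 gave 99, 101 and 3 for diet in WT, diet in Ercc1Δ/- and the diet interaction. No sex term gave 55 (diet in WT) and 2 (diet interaction), and all 6 groups 66 and 5. The compared groups alone gave 121 (6 weeks) and 90 (diet in Ercc1Δ/-). Thinning gave 775 against 1487 and 998 against 1605 (genotype at 22 weeks on AL and DR), 345 against 579 (age in Ercc1Δ/-), 11 (age in WT), 55 (diet in WT), 50 (age interaction) and 1 (diet interaction). Without the shallow libraries they were 91 (6 weeks), 14 (age in WT), 30 (diet in Ercc1Δ/-) and 7 (diet interaction). Leaving out 1 sample also moved them, to 102 without sample 009 (6 weeks), 933 and 44 without sample 018 (genotype at 22 weeks on AL and diet in WT), 8 without sample 025 (age in WT), 322 without sample 004 (age in Ercc1Δ/-), 78 without sample 026 (diet in Ercc1Δ/-), 55 without sample 018 (age interaction) and 2 without sample 004 (diet interaction) at the lowest. No paired analysis was possible because each mouse gave 1 library and the sample numbers are unique. Depth limits Runx2 and Nt5e most.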
